A study of Mus musculus with 4 samples.

Results

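The integrated stress response is the program by which cells answer amino acid shortage, unfolded proteins in the endoplasmic reticulum, heme shortage or viral RNA. Kinases that sense these conditions phosphorylate the translation initiation factor eIF2, which lowers protein synthesis as a whole while the mRNA of the transcription factor ATF4 is translated more. ATF4, with its target CHOP (encoded by Ddit3), then raises genes for amino acid supply, redox balance, growth arrest and, when stress lasts, cell death, and in liver it also raises secreted hormones such as FGF21.

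The genes followed here are 10 members of this ATF4-CHOP pathway, Atf4, Ddit3, Trib3, Asns, Chac1, Psat1, Fgf21, Gdf15, Sesn2 and Ddit4, taken by name out of the 48709 Ensembl genes in the count files. They were read in 4 mRNA libraries from livers of untreated C57BL/6 mice, 2 from WT mice and 2 from mice of genotype DDI2-/- (DDI2-KO). DDI2 is an aspartic protease that cuts and thereby activates NRF1, the transcription factor encoded by Nfe2l1. According to the methods, the DDI2-KO mice were DDI2 flox/flox with Cre recombinase under the albumin promoter, which acts in hepatocytes, and the controls were littermates from crosses in which both parents carried the floxed allele. The labels do not give the sex or age of these 4 mice, and the study used both sexes at ages from adolescence to young adulthood. The comparison asks whether livers of mice lacking the protease carry a stress response without any treatment.

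Depth in reads assigned to genes was 34109018 and 31532247 for WT, against 25582344 and 22501208 for the DDI2-KO-labelled libraries, so it was lower in that group as a whole. The defining hepatocyte markers were all present, with a summed level of 155242 and 180481 CPM (counts relative to the TMM-scaled library size) in WT and 146152 and 150104 CPM in the DDI2-KO-labelled libraries. The targeted gene, Ddi2, was not lower in the DDI2-KO-labelled libraries, at 157 and 164 CPM against 141 and 123 CPM in WT (log2 fold change 0.28, adjusted p = 0.349, edgeR). A count over the whole gene does not separate the floxed part from the rest, and the genotype labels were therefore not checked by it. All values are from whole liver, in which fewer cells of a type and less RNA per cell cannot be told apart.

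None of the 10 genes differed between the genotypes at an adjusted p under 0.05. The test was edgeR's quasi-likelihood test on the deposited counts, scaled by TMM factors, with Benjamini-Hochberg adjustment over all 13699 genes kept by the filter on low counts. All 10 members passed that filter. Over all genes tested, 2.53% were called, so a count of 0 among 10 genes is not itself low. At an unadjusted p under 0.05 there were 2 members, Fgf21 and Atf4, both higher in the DDI2-KO-labelled libraries, beside 12.0% of all genes tested that were higher at that limit. DESeq2, which called 7.25% of the genes it tested, limma-voom and limma-trend also called 0 of the members.

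Most members had a positive log2 fold change without passing the test. Their median log2 fold change was 0.34, beside -0.015 over all genes tested, with 7 positive and 3 negative values, and 48.7% of all genes tested were positive. In 5 members both DDI2-KO-labelled libraries lay above both WT libraries, and in 0 members both lay below, whereas 28.0% of all genes tested were separated upward and 27.7% downward, or 55.7% in either direction. Since the members were chosen with earlier results of these data known, no p is given for these counts.

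**Figure D1:**
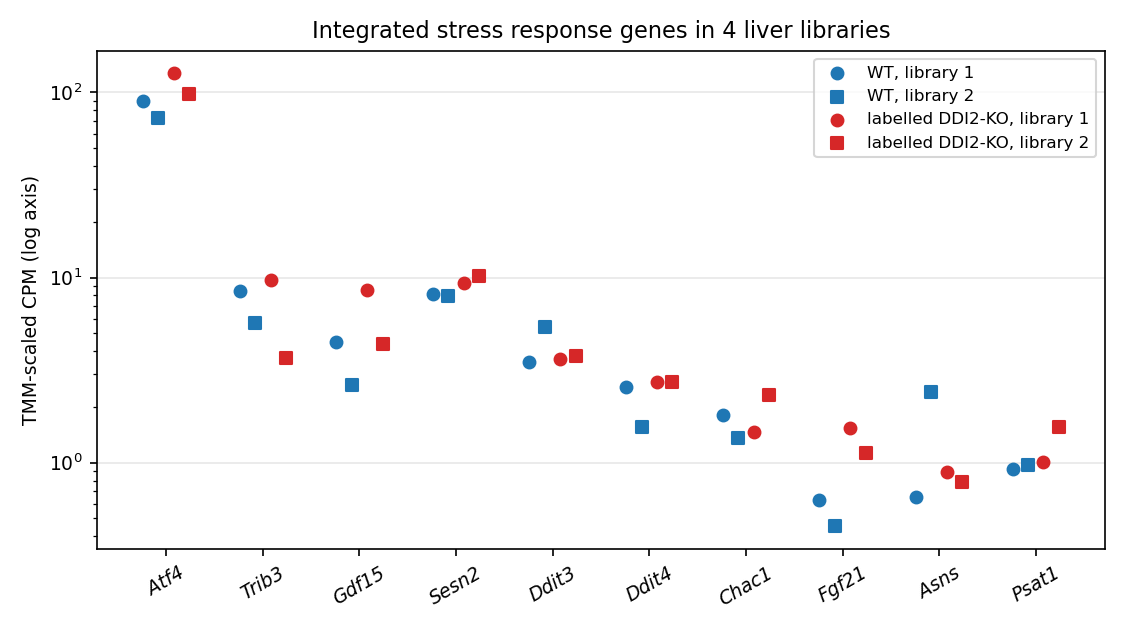
TMM-scaled CPM (log axis) of the 10 genes in each library, ordered by mean level per length, with WT in blue, DDI2-KO-labelled libraries in red, circles for library 1 and squares for library 2. Atf4 lies far above the others, the groups are separate in Atf4, Ddit4, Fgf21, Psat1 and Sesn2, and WT library 2 stands alone in Asns.

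Per length, Atf4 stood apart from the other 9 members, whose ranges over libraries overlapped from each gene to the next by mean, except from Ddit3 to Ddit4. In RPKM, counts scaled to exon length and library size, Atf4 had a mean level of 41.1 over the 4 libraries, with a range of 30.9 to 53.8. The mean levels that followed were 3.24 RPKM for Trib3, 2.70 for Gdf15, 2.56 for Sesn2 and 2.38 for Ddit3. Ddit4 (1.37 RPKM), Chac1 (1.06) and Fgf21 (0.987) came next by mean, and the amino acid enzymes Asns (0.432) and Psat1 (0.262) had the lowest means. Ddit4 reached 1.56 RPKM, below every value of Ddit3 but above the lowest value of Gdf15, 1.42 RPKM. The lowest count of any member in any library was 14 reads, for Fgf21 in WT library 2, well above a floor of 3 reads, which corresponds to 0.0892 to 0.131 CPM. At such counts the reads themselves limit precision for Fgf21, Asns and Psat1.

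ATF4, as a dimer with C/EBP proteins, is known to act through a DNA element shared by many of its targets. Its letters, TGATGNAA, were searched on both strands of RefSeq windows of GRCm38.p6 that run from 250 bases before to 50 bases after each gene start. The element was found in 4 of the 10 members, Fgf21, Chac1, Asns and Trib3, and in 3.97% of all 32851 windows. No other motif was searched, and a match describes the sequence without showing that the factor binds there. The sequences are shown because these 4 genes share the element, 5′ to 3′ on the gene's strand, with the element in capitals, which reads as its reverse complement in Fgf21, Chac1 and Trib3. For Fgf21 and Chac1 the bases ahead of the annotated gene are given, and for Asns and Trib3, whose elements lie near the start site, 30 bases around the element.
Fgf21, chr7:45615491-45615740, minus strand: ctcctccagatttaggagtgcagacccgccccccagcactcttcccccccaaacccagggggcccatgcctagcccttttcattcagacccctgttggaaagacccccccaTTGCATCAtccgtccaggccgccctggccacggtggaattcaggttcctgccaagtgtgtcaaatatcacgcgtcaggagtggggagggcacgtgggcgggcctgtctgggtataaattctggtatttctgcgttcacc
Chac1, chr2:119350992-119351228, plus strand: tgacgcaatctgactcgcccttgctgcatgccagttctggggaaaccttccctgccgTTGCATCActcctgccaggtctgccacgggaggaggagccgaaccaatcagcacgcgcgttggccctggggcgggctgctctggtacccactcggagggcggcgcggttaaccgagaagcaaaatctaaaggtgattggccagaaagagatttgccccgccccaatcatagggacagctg
Asns, chr6:7693214-7693243, minus strand: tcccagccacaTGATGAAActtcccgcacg
Trib3, chr2:152344028-152344057, minus strand: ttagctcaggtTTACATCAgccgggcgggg

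The element is the same 8 letters, TGATGCAA, in Fgf21 and Chac1, and begins at position -139 from the start in Fgf21 and -193 in Chac1. These 4 genes did not move together. With all libraries, the log2 fold changes were 1.31 for Fgf21, 0.24 for Chac1, -0.081 for Trib3 and -0.85 for Asns. The members with the highest and the lowest estimate thus both hold the element. Of the 295 tested genes with the element in a window, 1.36% were called, with a median log2 fold change of -0.037, and of the 10192 tested genes without it 2.52% were called, with a median of -0.010. The called genes with the element were Vldlr, G6pc (log2 fold change 1.81), Gna14 (1.77) and Pdzk1ip1 (1.24), all higher in the DDI2-KO-labelled libraries. Of these, the last 3 were named after their values had been seen, and G6pc encodes the glucose-6-phosphatase catalytic subunit of hepatic glucose release.

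Atf4 (ENSMUSG00000042406, chromosome 15, 80255184 to 80257541, plus strand of GRCm38) encodes the factor at the head of the pathway. Its reads numbered 3027 and 2253 in WT, and 3281 and 2259 in the DDI2-KO-labelled libraries. After scaling this was 90.0 and 72.9 CPM against 127 and 98.3 CPM, so both DDI2-KO-labelled libraries lay above both WT libraries, the nearest pair being 90.0 and 98.3 CPM. This was a log2 fold change of 0.47 (standard error, SE, 0.19, 95% interval 0.019 to 0.91, adjusted p = 0.200, edgeR). In fold terms the interval runs from 1.01 to 1.88. As ATF4 is controlled mainly in translation, its mRNA level is no measure of the protein, which was not measured here.

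Ddit3 (ENSMUSG00000025408, chromosome 10, 127290774 to 127296288, plus strand) encodes CHOP, the factor that ATF4 induces when stress persists. It had 3.51 and 5.41 CPM in WT and 3.63 and 3.79 CPM in the DDI2-KO-labelled libraries, from 118, 167, 94 and 87 reads. Both DDI2-KO-labelled libraries lay between the WT libraries, and the log2 fold change was -0.26 (SE 0.28, adjusted p = 0.617, edgeR), with a 95% interval in fold terms of 0.534 to 1.30. Without WT library 2 the log2 fold change was 0.079. The annotation places 81 of the 1713 exonic bases of Ddit3 opposite exons of Mars and Gm4189, and 105 within a second gene entry of the same name on the same strand. The libraries were stranded, but the strand setting of the counting is not given in the sources used here, so reads from the opposite-strand stretch cannot be assigned with certainty, nor can those from the same-strand stretch, whatever the setting.

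Trib3 (ENSMUSG00000032715, chromosome 2, 152337422 to 152344032, minus strand) encodes a pseudokinase that binds ATF4 and CHOP and restrains them, and is among the most responsive targets of both. Its levels were 8.51 and 5.66 CPM in WT and 9.66 and 3.70 CPM in the DDI2-KO-labelled libraries. The DDI2-KO-labelled libraries held both the highest and the lowest value, with a 2.61-fold spread within that group. Across all tested genes, the difference between these libraries went with GC content (Spearman -0.495, library 2 minus library 1, against 0.070 between the WT libraries, genes not being independent replicates), and its part in the spread of Trib3, Gdf15 and Atf3 was not tested. The log2 fold change was -0.081 (SE 0.46, 95% interval -1.20 to 1.04, adjusted p = 0.937, edgeR). Its direction was set by single libraries, since the log2 fold change was 0.45 without DDI2-KO-labelled library 2, 0.24 without WT library 1, and -0.93 without DDI2-KO-labelled library 1.

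**Figure D2:**
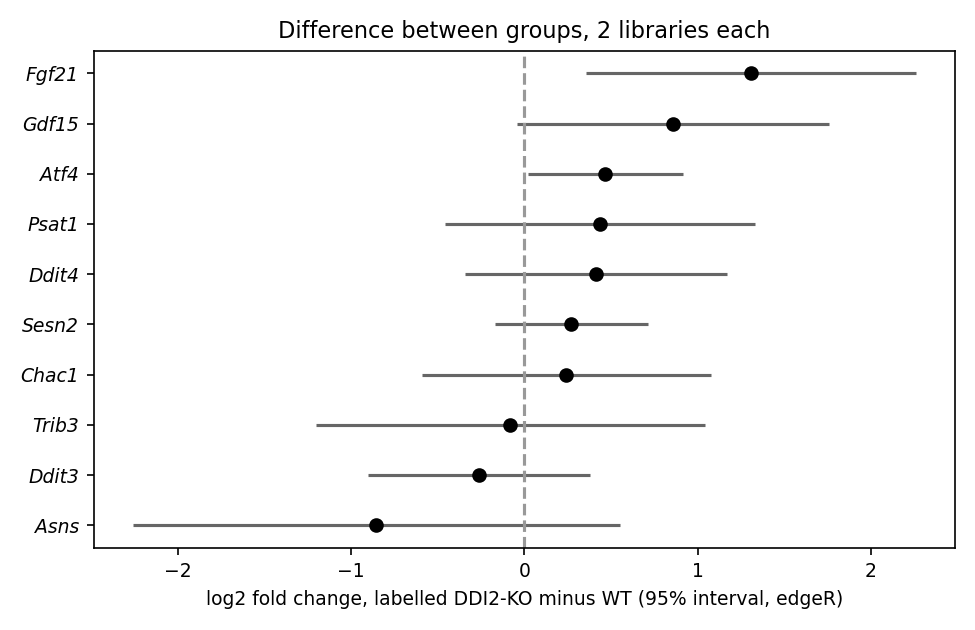
Log2 fold change of each gene, DDI2-KO-labelled libraries minus WT (2 libraries each), with its 95% interval from edgeR's quasi-likelihood fit. The unadjusted intervals of Fgf21 and Atf4 lie above 0, those of the other 8 genes include 0, and the widest belong to Asns and Trib3.

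The targets that serve amino acid supply and redox balance were Asns, Psat1 and Chac1. Their log2 fold changes differed in sign, and each 95% interval included 0. Asns (ENSMUSG00000029752, chromosome 6, 7675169 to 7693254, minus strand) encodes asparagine synthetase, the classic gene of amino acid limitation. It had 22 and 74 WT reads against 23 and 18 in the DDI2-KO-labelled libraries, or 0.654 and 2.40 CPM against 0.889 and 0.783 CPM. WT library 2 was 3.66-fold above WT library 1, while the other 3 libraries lay close together. The fit gave a log2 fold change of -0.85 (SE 0.60, 95% interval -2.26 to 0.55, adjusted p = 0.436, edgeR), and without WT library 2 it was 0.35. The mitochondrial folate enzyme gene Mthfd1l stood apart in the same library, with 20 and 77 WT reads against 18 and 19 in the DDI2-KO-labelled libraries.

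Psat1 (ENSMUSG00000024640, chromosome 19, 15904678 to 15947337, minus strand) encodes phosphoserine aminotransferase of serine synthesis. Its levels were 0.922 and 0.971 CPM in WT and 1.00 and 1.57 CPM in the DDI2-KO-labelled libraries. The groups did not overlap, but WT library 2 and DDI2-KO-labelled library 1 nearly touched. Psat1 had a log2 fold change of 0.43 (SE 0.39, adjusted p = 0.546, edgeR) and was 0.095 without DDI2-KO-labelled library 2. Of the stretches of 50 bases in its longest transcript, 1.21% also occur in the annotated gene Gm12611, and the longest transcripts of the other 9 members held no such stretch of another gene.

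Chac1 (ENSMUSG00000027313, chromosome 2, 119351229 to 119354381, plus strand) encodes an enzyme that degrades glutathione and is induced by ATF4. It had 1.81 and 1.36 CPM in WT and 1.47 and 2.31 CPM in the DDI2-KO-labelled libraries. The groups overlapped, since DDI2-KO-labelled library 1 lay between the WT libraries, and the log2 fold change was 0.24 (SE 0.36, 95% interval -0.59 to 1.07, adjusted p = 0.729, edgeR), and it was -0.11 without DDI2-KO-labelled library 2.

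The genes for secreted stress hormones, Fgf21 and Gdf15, had the highest log2 fold changes of the members with all 4 libraries, and neither passed the test. Fgf21 (ENSMUSG00000030827, chromosome 7, 45613886 to 45615490, minus strand) encodes a hepatic hormone of fasting and of protein restriction that PPARalpha also induces. It had 21 and 14 WT reads against 40 and 26 in the DDI2-KO-labelled libraries, despite the smaller size of the latter. After scaling, these were 0.539 ± 0.121 CPM (SD, n = 2) and 1.34 ± 0.293 CPM (SD, n = 2), with the higher WT library at 0.625 and the lower DDI2-KO-labelled library at 1.13 CPM. The log2 fold change was 1.31 (SE 0.41, 95% interval 0.35 to 2.26, adjusted p = 0.116, edgeR), at percentile 99.0 of all genes tested. Leaving out 1 library at a time, it ran from 1.06 to 1.56, positive each time and never under an adjusted p of 0.05.

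Gdf15 (ENSMUSG00000038508, chromosome 8, 70629393 to 70632456, minus strand) encodes a circulating hormone of cell stress that reduces appetite. Its levels were 4.49 and 2.62 CPM in WT and 8.54 and 4.35 CPM in the DDI2-KO-labelled libraries. DDI2-KO-labelled library 2 lay just under WT library 1, so the groups overlapped. Gdf15 had a log2 fold change of 0.86 (SE 0.39, 95% interval -0.044 to 1.76, adjusted p = 0.231, edgeR), and it was 0.29 without DDI2-KO-labelled library 1. Macrophages also express Gdf15, and the summed level of 7 Kupffer cell and macrophage markers was 697 and 589 CPM in WT and 840 and 719 CPM in the DDI2-KO-labelled libraries. Of these 7 markers 0 were called, beside 2.53% of all genes tested, so that count is not itself low. Of the same markers 6 had a positive log2 fold change, and none was at 0 reads in any library. They ranged from -0.62 for Cd68 to 0.58 for Adgre1 (adjusted p = 0.123 and 0.0744, edgeR). Their part in the Gdf15 values was not tested.

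The members that restrain growth signalling through mTORC1 were Sesn2 and Ddit4. Sesn2 (ENSMUSG00000028893, chromosome 4, 132492032 to 132510501, minus strand) encodes a leucine-binding sestrin, and had close replicates, at 8.18 and 7.96 CPM in WT and 9.35 and 10.1 CPM in the DDI2-KO-labelled libraries. The groups did not overlap, yet the difference was small, with a log2 fold change of 0.27 (SE 0.19, adjusted p = 0.432, edgeR) and an interval in fold terms of 0.890 to 1.64. Ddit4 (ENSMUSG00000020108, chromosome 10, 59949669 to 59951834, minus strand) encodes REDD1, which glucocorticoids also induce. It had 2.56 and 1.55 CPM in WT and 2.74 in both DDI2-KO-labelled libraries, a log2 fold change of 0.41 (SE 0.33, adjusted p = 0.492, edgeR). WT library 2 made most of that difference, since without it the log2 fold change was 0.10.

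**Figure D3:**
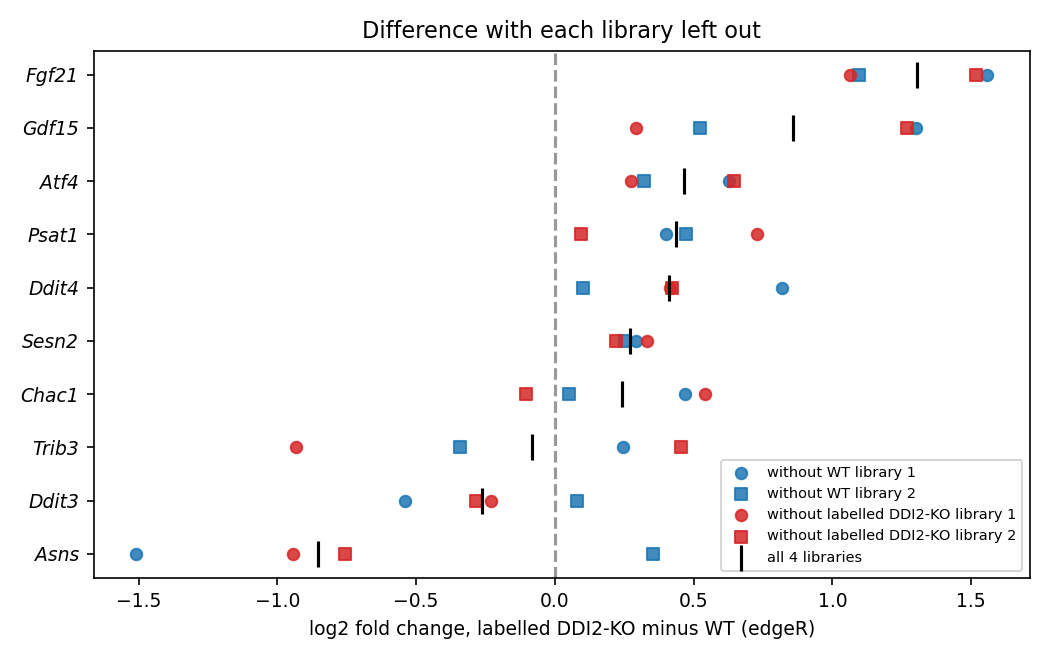
Log2 fold change of each gene with all 4 libraries (black bars) and with each library left out (coloured points), from edgeR refitted each time. Fgf21, Gdf15, Atf4, Psat1, Ddit4 and Sesn2 stay above 0 throughout, whereas Chac1, Trib3, Ddit3 and Asns cross 0, Asns only without WT library 2.

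The rest of the pathway was read from lists of upstream factors, partners and targets, in all 84 tested genes outside the members. Of these, 1 was higher and 0 were lower at an adjusted p under 0.05, beside 1.33% and 1.20% of all genes tested. Their median log2 fold change was 0.10. With so few genes in each list, a count of 0 calls in any of them is not itself low.

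Upstream, 0 of 18 genes were called, which encode eIF2, its kinases, exchange factor and phosphatases and 4 proteins that act with or upstream of the kinases (Gcn1l1, Impact, Dele1 and Oma1), with a median log2 fold change of -0.030. The kinases split in direction. Eif2ak3, encoding PERK of the endoplasmic reticulum, had 14.1 and 20.3 CPM in WT and 27.0 and 23.6 CPM in the DDI2-KO-labelled libraries (log2 fold change 0.56, adjusted p = 0.166, edgeR), whereas Eif2ak2, encoding the RNA-sensing kinase PKR, was the lowest of the list at -0.49 (adjusted p = 0.170). Eif2ak4, encoding the amino acid sensor GCN2, had -0.041. The highest value was that of Eif2b1, a subunit of the eIF2 exchange factor, at 0.57 (adjusted p = 0.113). Ppp1r15a, the CHOP target that encodes the GADD34 subunit of the eIF2 phosphatase, had 10.1 and 13.5 CPM in WT and 15.6 and 19.0 CPM in the DDI2-KO-labelled libraries (0.55, adjusted p = 0.168).

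The list of bZIP factors that pair with ATF4 or respond to stress also held Nupr1. Of its 12 genes, 11 were tested and 0 were called. Atf3, an early-response factor induced by ATF4 and by many other stimuli, had 37 and 31 WT reads against 72 and 185 in the DDI2-KO-labelled libraries. Its log2 fold change was 2.35 (SE 0.51, adjusted p = 0.0624, edgeR), and DDI2-KO-labelled library 2 was 8.05 CPM against 2.78 CPM in library 1. Without DDI2-KO-labelled library 2 the log2 fold change was 1.41. Its adjusted p was 0.000263 with DESeq2, 0.0102 with all genes kept and 0.0123 without DDI2-KO-labelled library 1. Nupr1, a stress-responsive chromatin protein rather than a bZIP factor, was the lowest of the list at -0.87 (adjusted p = 0.231, edgeR). It had 2.14 and 4.43 CPM in WT against 1.55 and 2.05 CPM in the DDI2-KO-labelled libraries. Nfe2l1, which encodes NRF1, had 106 and 68.0 CPM in WT and 114 and 73.7 CPM in the DDI2-KO-labelled libraries, so it differed more within each group than between them.

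The anabolic gene families that include targets of ATF4 likewise showed 0 calls, which beside 2.53% of all genes tested is not itself low for lists of this size. They were listed by function, so not every gene in them is a known target. Of 13 tested genes for serine, glycine, one-carbon and proline synthesis the median log2 fold change was -0.20, from -1.01 for Mthfd1l to 0.50 for Gpt2 (adjusted p = 0.210, edgeR). Of 9 tested amino acid transporters the median was 0.18, from -0.73 for Slc43a1 (adjusted p = 0.124) to 0.67 for the leucine transporter gene Slc7a5 (adjusted p = 0.280). The cystine transporter gene Slc7a11 had 2 reads in WT library 1 and 0 in the other 3 libraries, and was not tested. The cytosolic aminoacyl-tRNA synthetases, which charge tRNAs with amino acids, had 17 of 20 positive log2 fold changes and a median of 0.20. Among them Yars was highest at 0.54 (adjusted p = 0.101, edgeR) and Aars lowest at -0.13 (adjusted p = 0.710). In 13 of the 20 both DDI2-KO-labelled libraries lay above both WT libraries, beside 28.0% of all genes tested.

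The single called gene of the pathway was Vldlr, the receptor for very-low-density lipoproteins, which ATF4 and PPARalpha are both known to induce. It had 389 and 338 WT reads against 535 and 637 in the DDI2-KO-labelled libraries, which is 11.3 ± 0.446 CPM against 24.2 ± 4.98 CPM (SD, n = 2 each). This made a log2 fold change of 1.10 (SE 0.20, adjusted p = 0.0404, edgeR). The adjusted p was 0.124 without WT library 1, 0.119 without WT library 2, 0.0549 with limma-voom, 0.0558 with limma-trend and 0.0529 without robust estimation. Of the other 14 tested genes of its list, which include the CHOP targets of cell death Bbc3 and Bcl2l11, 0 were called.

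**Figure D4:**
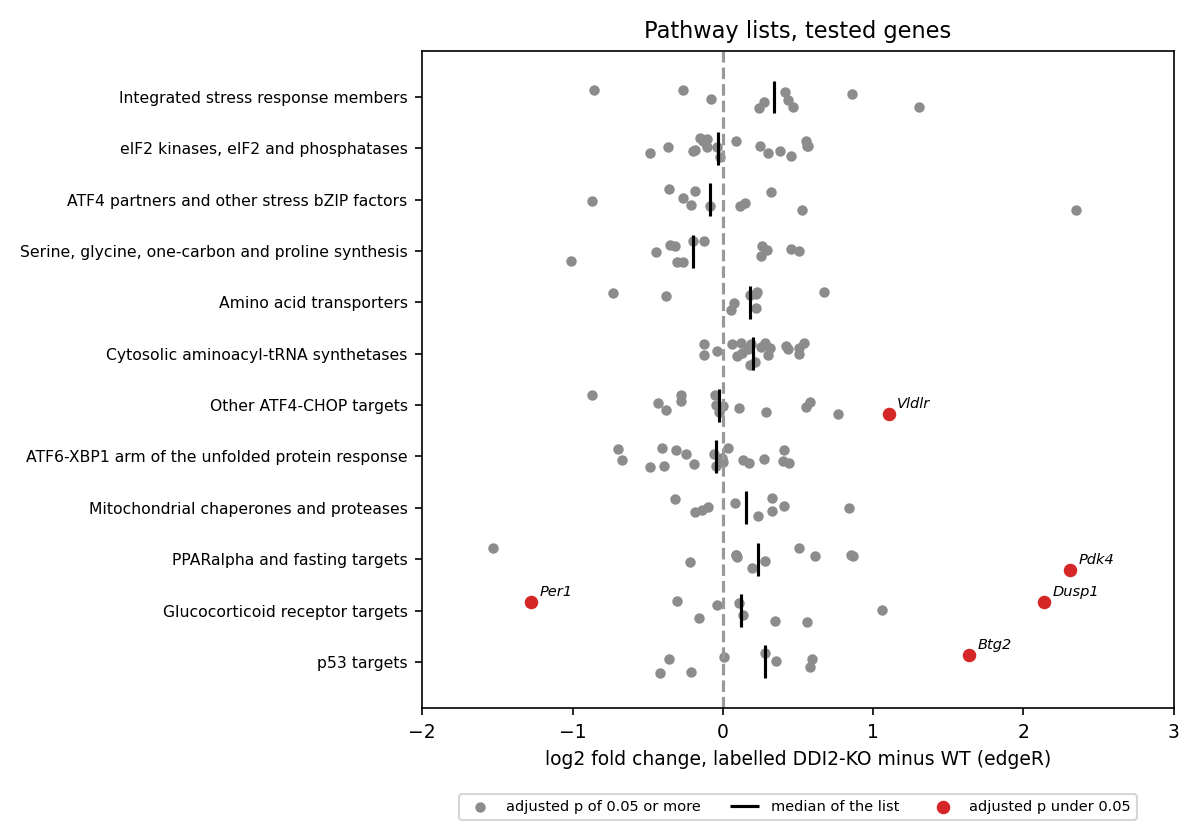
Log2 fold changes (DDI2-KO-labelled libraries minus WT, edgeR) of all tested genes in each list, with 1 point per gene, a black bar at the list's median and called genes in red. Red points appear for Vldlr, Pdk4, Dusp1, Per1 and Btg2, and none of the 10 members is red.

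The arms that run beside the integrated stress response gave no calls either. With 2.53% called over all genes tested, a count of 0 in lists of this size is not itself low. Of 19 genes of the ATF6-XBP1 arm, which expands the folding capacity of the endoplasmic reticulum, 0 were called and the median log2 fold change was -0.044. Of these 19 log2 fold changes 7 were positive and 12 negative. Hspa5, encoding the chaperone BiP, had 531 and 574 CPM in WT and 720 and 619 CPM in the DDI2-KO-labelled libraries (0.28, adjusted p = 0.384, edgeR). The smallest adjusted p of the list was that of Calr, which was lower. It had 892 and 916 CPM in WT and 608 and 525 CPM in the DDI2-KO-labelled libraries (-0.67, adjusted p = 0.0764, edgeR). The extremes were Dnajb9 at 0.44 (adjusted p = 0.268) and Sdf2l1 at -0.70 (adjusted p = 0.115). Of 10 mitochondrial chaperones and proteases 0 were called, with a median of 0.16, from -0.32 for Yme1l1 (adjusted p = 0.303) to 0.84 for Clpx (adjusted p = 0.175).

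Some members answer to inputs other than ATF4, and lists for 3 of these were read beside them. These lists too were chosen with earlier results of these data known, and each includes the gene of its regulator (Ppara, Nr3c1 or Trp53). Of 12 genes listed for fasting and for PPARalpha, which also induces Fgf21, 1 was called, beside 2.53% of all genes tested. This was Pdk4, encoding the kinase that shuts down pyruvate dehydrogenase in fasting, which rose from 6.78 and 6.93 CPM in WT to 35.5 and 32.6 CPM in the DDI2-KO-labelled libraries (log2 fold change 2.31, SE 0.17, adjusted p = 0.00911, edgeR). Of the list 10 log2 fold changes were positive and 2 negative, with a median of 0.24. Ehhadh, encoding a peroxisomal enzyme of fatty acid oxidation, had 283 and 368 CPM in WT and 630 and 557 CPM in the DDI2-KO-labelled libraries (0.87, adjusted p = 0.0613, edgeR). The lowest value was that of Cyp4a14, a strongly PPARalpha-dependent gene, which had 804 and 358 CPM in WT and 164 and 239 CPM in the DDI2-KO-labelled libraries (-1.53, adjusted p = 0.105). For the classic target Cpt1a the log2 fold change was 0.19 (adjusted p = 0.593, edgeR).

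Of 10 genes listed for the glucocorticoid receptor, relevant to Ddit4, 1 rose and 1 fell, beside 1.33% and 1.20% of all genes tested. Dusp1, a phosphatase of MAP kinases, had 29.4 and 21.8 CPM in WT and 75.6 and 150 CPM in the DDI2-KO-labelled libraries (log2 fold change 2.14, adjusted p = 0.0438, edgeR), with an adjusted p of 0.0623 without WT library 2 and 0.104 when offsets for GC content and length were fitted. Per1, also a clock gene, fell by 1.27 on the log2 scale (adjusted p = 0.0438), with an adjusted p of 0.155 without WT library 1, 0.0839 without WT library 2 and 0.0689 without DDI2-KO-labelled library 1, and from 0.0581 to 0.0777 with limma-voom, limma-trend, estimation that was not robust or the offsets. Fkbp5 and Tsc22d3, also targets of the receptor, had 0.11 and 0.56 with adjusted p of 0.716 and 0.178 from edgeR. Of 9 genes listed for p53, relevant to Sesn2, 1 was called, beside 2.53% of all genes tested. Btg2, an antiproliferative early-response gene, stood at 1.64 on the log2 scale (adjusted p = 0.0404, edgeR), with an adjusted p of 0.0804 without WT library 1, 0.0609 without DDI2-KO-labelled library 1, 0.0893 without DDI2-KO-labelled library 2 and 0.0506 with limma-trend. The lowest of the list was Ccng1, encoding cyclin G1, with 45.8 and 39.4 CPM in WT and 28.4 and 35.3 CPM in the DDI2-KO-labelled libraries (-0.42, adjusted p = 0.203, edgeR). The list held 6 positive and 3 negative values, and Cdkn1a, Mdm2 and Trp53 itself had 0.58, -0.21 and -0.36 with adjusted p of 0.314, 0.514 and 0.229.

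Among markers of other liver cells, 2 were called, and both fell, beside 1.20% of all genes tested that were called lower. They were 1 of 6 tested sinusoidal endothelial markers and 1 of 4 tested erythroid markers. Stab2 of sinusoidal endothelium had 73.7 and 61.2 CPM in WT and 32.9 and 29.9 CPM in the DDI2-KO-labelled libraries (log2 fold change -1.10, adjusted p = 0.0288, edgeR, 0.109 without WT library 1). The hemoglobin gene Hba-a1 had 25.6 and 47.6 CPM in WT and 10.3 and 8.83 CPM in the DDI2-KO-labelled libraries (-1.94, adjusted p = 0.0338, but 0.196 and 0.213 when either DDI2-KO-labelled library was left out). The summed levels of 6 sinusoidal endothelial markers ran from 420 to 459 CPM in WT and from 427 to 431 CPM in the DDI2-KO-labelled libraries. Of these 6 markers, 4 had a positive and 2 a negative log2 fold change, with a median of 0.074. The sums for stellate, biliary and lymphocyte or neutrophil markers were 452 and 495, 56.5 and 53.1, and 26.1 and 25.0 CPM in WT, and 428 and 449, 70.5 and 68.8, and 19.2 and 20.6 CPM in the DDI2-KO-labelled libraries. Between the groups these sums overlapped for sinusoidal and were apart for the other 3, higher in the DDI2-KO-labelled libraries for biliary markers. The stellate sums nearly touched, at 452 CPM in WT library 1 and 449 CPM in DDI2-KO-labelled library 2. Among single genes tested, 55.7% were separated in either direction, so such a separation is common with 2 libraries per group. The 5 erythroid markers summed to 93.4 and 179 CPM in WT and 71.2 and 60.6 CPM in the DDI2-KO-labelled libraries. The part of these cells in the members' values was not tested.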

How the data were processed

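Liver mRNA of untreated mice was read in 4 libraries (TruSeq Stranded mRNA). The authors deposited raw counts per Ensembl gene, without normalization. The submitters' processing notes name cutadapt 1.8, STAR 2.5.2b, HTSeq 0.6.1 and GRCm38; the annotation is not given in the sources used here. The 5 summary lines of each file were left out: reads placed at several sites, which were not counted on genes, made up 30.6% to 37.9% of each file. Symbols and positions are from GENCODE M21, which holds 48349 of the 48709 identifiers.

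Counts were compared with edgeR 4.0.16 in R 4.3.3 (TMM, filterByExpr with a minimum count of 10, robust glmQLFit, glmQLFTest, Benjamini-Hochberg). The study used limma. Standard errors are the log2 fold change over the square root of F, and 95% intervals use the fit's degrees of freedom. The code was tested on simulated data. With 2 libraries per group, precision is limited by the number of mice; whether replicates were separate mice follows from the methods, and p-values measure only the spread between these libraries. Floors cover counting error only.

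The members, lists and tests were chosen with earlier results of these data known. Named are all members, Ddi2 and Nfe2l1, and of each list other than the cell type markers the called genes and the extremes. Other genes, markers included, were named after their values were seen. Alternatives were RLE, upper-quartile and total scaling, DESeq2 1.42.0, limma 3.58.1 (voom, and trend with a prior count of 2), other filters and thresholds, estimation that was not robust, the replicate number as a block, each library left out in turn, and offsets for GC content and length (lowess span 0.3).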

Additional observations from a re-analysis of the deposited data

How the results depend on the processing

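The count of 0 members called, in each direction, was the same under all 18 alternatives, including an adjusted p limit of 0.1. A limit of 0.01 could only give 0 again, and fits with a library left out had fewer libraries to find a difference. The smallest adjusted p of a member outside fits with a block or a left-out library was 0.0667, for Fgf21 without the filter on low counts (edgeR). Gdf15 came closer in the fits with a block, at 0.0639 with the replicate block and 0.0583 with the block and the offsets (edgeR). The median log2 fold change of the members stayed between 0.25 and 0.43. Of 159 refits of single members, 154 kept their direction and their side of the threshold. The other 5, all with a library left out, changed sign, where the log2 fold change ran from -0.54 to 0.079 for Ddit3, -0.93 to 0.45 for Trib3, -1.51 to 0.35 for Asns and -0.11 to 0.54 for Chac1. Fgf21 gave no value with a mean of at least 1 CPM, which it did not reach.

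The count of pathway genes higher was 0 with limma-voom, limma-trend, no robust estimation and an adjusted p under 0.01. It was 2 with DESeq2 and with an adjusted p under 0.1, and 3 without the filter on low counts, which adds Atf3 and Eif2b1 to Vldlr. With each library left out it ran from 0 to 2. The count of pathway genes lower was 1 (Slc43a1) without the filter and ran from 0 to 1 with each library left out. Over all genes, the 346 calls became 136 with limma-voom, 139 with limma-trend, 152 without robust estimation, 907 with DESeq2, 842 with the offsets and 1544 without the filter, and they became 153 without WT library 1, 203 without WT library 2 and 631 without DDI2-KO-labelled library 2. Of the calls 52.6% were higher, against 39.7% with upper-quartile factors, 60.8% with library totals and 37.4% without WT library 2. The causes were not tested.

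The labels number the replicates without saying whether same-numbered libraries were paired. Deviations of same-numbered libraries had a correlation of 0.047 across genes. This cannot exclude a pairing, since the difference between the DDI2-KO-labelled libraries went with GC content (Spearman -0.495) and that between the WT libraries hardly did (0.070). With a replicate block 0 members were called, 2 pathway genes were higher (Vldlr and Atf3), and 1108 genes were called in all. With the block and the offsets together, these became 0, 1 (Vldlr, with Atf3 at an adjusted p of 0.0773 in edgeR) and 504. Dusp1 had an adjusted p of 0.0611 with the block in edgeR. Depth limits Fgf21, Asns and Psat1 most.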
